A study of Mus musculus with 4 samples.

Results

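The miR-7 family of the mouse comprises the guide strands miR-7a-5p and miR-7b-5p and the passenger strands miR-7a-1-3p, miR-7a-2-3p and miR-7b-3p. These 5 mature miRNA (mmu-miR-7a-5p, mmu-miR-7b-5p, mmu-miR-7a-1-3p, mmu-miR-7a-2-3p and mmu-miR-7b-3p) were taken by name from the 1966 listed in the small RNA counts of cultured cortical neurons, and all 5 had enough reads to be tested. The neurons came from cortex of WT and APP/PS1 mutant (TgAD) mouse embryos at E16.5 and were kept for 5 days in culture without any treatment, with 2 libraries per genotype. They were plated in medium with serum and then moved to serum-free medium. The TgAD line has a B6C3 background and 2 transgenes. APPswe is a part-human APP with the Swedish double mutation, and PSEN1dE9 is human presenilin 1 with exon 9 deleted. The prion gene promoter of the mouse drives both, chiefly in brain neurons. According to the study's methods, each culture came from a single embryo that was genotyped afterwards. The comparison asks how the miR-7 guides and passengers differ between TgAD and WT neurons.

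miR-7 is an old and highly conserved miRNA of neurons and neuroendocrine cells. In the brain it is bound by the circular RNA Cdr1as, which holds many miR-7 sites, and Cdr1as is in turn cleaved under the guidance of miR-671. Each miR-7 hairpin gives a 5p arm, the guide that is loaded into Argonaute and selects targets through its seed, and a 3p arm, the passenger that is mostly discarded. Neither the circular RNA nor any mRNA was measured here.

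The mature sequences (RefSeq, GRCm38.p6) are shown because the members differ at few positions, which decides what a count can separate. The seed, bases 2 to 8 from the 5′ end, is in capitals.
miR-7a-5p: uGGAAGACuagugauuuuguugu
miR-7b-5p: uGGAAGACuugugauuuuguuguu
miR-7a-1-3p: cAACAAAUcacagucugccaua
miR-7a-2-3p: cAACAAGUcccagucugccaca
miR-7b-3p: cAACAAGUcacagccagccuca
The guides share the seed and differ over 23 compared bases at a single position, A10U (miR-7a-5p first, positions counted from 1 at the 5′ end), besides the longer 3′ end of miR-7b-5p. Among 1679 mature mouse miRNA names in the RefSeq table, GGAAGAC is the seed of these 2 guides and of no other. miR-7a-2-3p and miR-7b-3p also have a seed in common, AACAAGU, while that of miR-7a-1-3p, AACAAAU, belongs to it alone. The miR-7 seed match GTCTTCC, searched on the mRNA strand, occurs in an annotated 3′-UTR of 2670 of 21037 mouse genes (12.7%, GENCODE M21).

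The 3 hairpins lie on different chromosomes of GRCm38. Mir7-1 (ENSMUSG00000065434.1), which gives miR-7a-5p and miR-7a-1-3p, occupies bases 58392779 to 58392886 of chromosome 13, minus strand. It is intronic in all 12 transcripts of Hnrnpk that span it, a gene for an RNA-binding protein transcribed from the same strand. Mir7-2 (ENSMUSG00000065609.1), which gives miR-7a-5p and miR-7a-2-3p, occupies bases 78888277 to 78888373 of chromosome 7, plus strand. It overlaps no other annotated gene, and Aen starts 7481 bases downstream. Mir7b (ENSMUSG00000065491.1) occupies bases 56242988 to 56243098 of chromosome 17, plus strand, 183 bases from the end of a lincRNA, AC026385.1, on the same strand. The mature miR-7a-5p therefore has 2 possible sources, and the hairpins Mir7-1 and Mir7-2 share a run of 24 nucleotides that holds all of it. Reads of miR-7a-5p cannot be assigned to either hairpin, and how the authors counted reads with several placements is not given in the sources used here. The longest run that Mir7b shares with either of the others is 14 nucleotides, shorter than any mature member.

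The libraries held between 2070204 and 4811010 reads counted on miRNA. The labels of the count tables and of the deposited table of normalized values are in conflict. In the normalized table, the column named for WT replicate 1 holds the reads of the count table labelled TgAD replicate 1, the column named for WT replicate 2 holds those of WT replicate 1, and the column named for TgAD replicate 1 holds those of TgAD replicate 2, for 100% of 674 listed miRNA each. The last column equals none of the count tables. The count tables, which are tied to the samples, are used below with their labels, and the fold changes and arm ratios below are also given without the library labelled TgAD replicate 1 and with the columns of the normalized table taken by name. With those columns by name, 0 tested miRNA passed the cutoffs used below in either direction, so a call lost there is not particular to miR-7. Of 8 neuronal marker miRNA, miR-128-3p, miR-138-5p, miR-218-5p and miR-137-3p each had at least 2237 reads in every library, but both arms of miR-9 had 0 reads in all libraries and the defining neuronal miR-124-3p had 1 to 7. The summed level of the neuronal markers was between 25122 and 39047 CPM in WT and between 63158 and 87736 CPM in TgAD libraries, most of it miR-128-3p. Single neuronal markers moved in both directions, since of the 5 tested miR-128-3p was called higher (log2 fold change 1.49, adjusted p = 0.0294 by edgeR), miR-137-3p was called lower (-1.53, adjusted p = 0.0102), and miR-138-5p was at -0.63 without passing (adjusted p = 0.226). The 3 oligodendrocyte and 2 endothelial markers were also at 0, where the limit is 3 reads per library. The cause of these counts of 0 was not tested, and how reads with several placements were counted is not given. A marker count of 0 therefore does not show that the miRNA or its cell type was absent. The erythroid miR-451a and miR-144-3p summed to between 1310 and 1331 CPM in WT and between 646 and 957 CPM in TgAD libraries. Nearly all of this was miR-451a, which was called lower (log2 fold change -0.72, adjusted p = 0.0707 by edgeR), as miR-144-3p had at most 3 reads in any library. The myeloid markers summed to between 9.96 and 14.7 CPM in all libraries. The part of these differences in the miR-7 results was not tested, and in cultures measured in bulk fewer expressing cells and less miRNA per cell cannot be told apart.

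miR-7b-5p had the most counted reads of the members and was the only one called lower in TgAD neurons in the reported fit. WT neurons gave 19983 and 28102 reads of it, and TgAD neurons 4927 and 15298. In CPM, counts scaled to library size with edgeR's TMM factors, these were 8505 and 9652 in WT and 1796 and 3804 in TgAD neurons. Both TgAD libraries lay far below both WT libraries, but they differed from each other 2.12-fold, whereas the WT libraries differed 1.13-fold. Among the 1966 miRNA it ranked at 19 and 17 by reads in the WT libraries and at 58 and 34 in the TgAD libraries. This was a decrease of 69.2%, or a log2 fold change of -1.70 (standard error 0.365, 95% interval -2.58 to -0.82). The adjusted p was 0.0266 (quasi-likelihood test of edgeR, Benjamini-Hochberg over 496 miRNA). Without TgAD replicate 1 the value was -1.35 (adjusted p = 0.0285 by edgeR), and with the normalized table taken by name it was -0.98 (adjusted p = 0.615) and the call was lost.

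**Figure D1:**
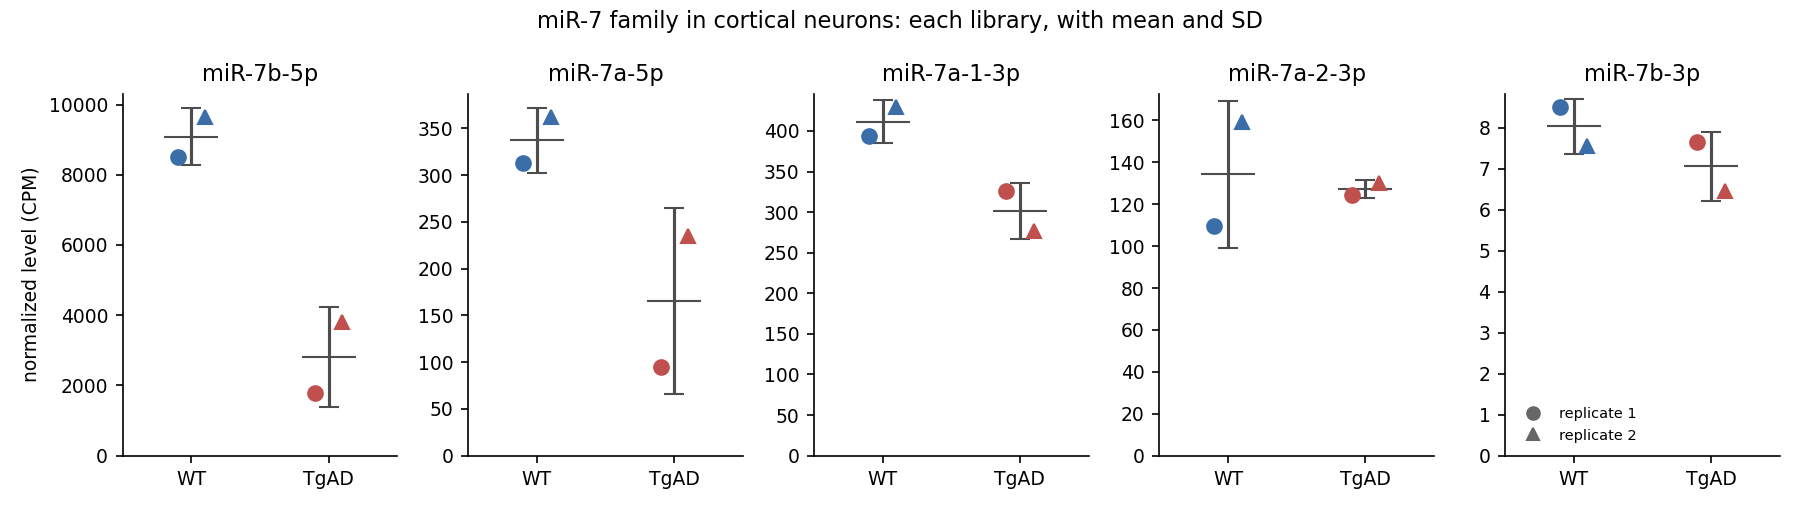
Normalized level in CPM (vertical axes, each from 0) of each miR-7 member in the WT and TgAD libraries (circles, replicate 1, triangles, replicate 2, bars, mean and SD of 2 libraries). miR-7b-5p lies at 8505 and 9652 CPM in WT and at 1796 and 3804 CPM in TgAD neurons, while the levels of miR-7a-2-3p and miR-7b-3p overlap.

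The other guide, miR-7a-5p, which has the same seed, had far fewer counted reads and followed the same order of libraries. The part of the counting of reads with several placements in this gap between the guides was not tested. Reads of miR-7a-5p numbered 734 and 1053 in WT and 261 and 946 in TgAD neurons, or 312 and 362 CPM in WT and 95.1 and 235 CPM in TgAD neurons. Both TgAD libraries were below both WT libraries, and TgAD replicate 1 was again the lowest, 2.47-fold below TgAD replicate 2. Its log2 fold change of -1.02 (standard error 0.409, 95% interval -2.01 to -0.04) had an unadjusted p of 0.0440 and an adjusted p of 0.123 (edgeR, Benjamini-Hochberg), and did not pass the cutoff of 0.1. It passed with DESeq2 (log2 fold change -1.05, adjusted p = 0.0237) and with total counts as library size (-1.33, adjusted p = 0.00232 from edgeR). Without TgAD replicate 1 it was -0.62 (adjusted p = 0.112 from edgeR), and without TgAD replicate 2 it was -1.80 (adjusted p = 0.00565 from edgeR), so the size of the difference depended on TgAD replicate 1. With the normalized table by name it was -0.38 (adjusted p = 0.876 from edgeR).

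The passengers did not pass the test. miR-7a-1-3p, from the Hnrnpk intron, had 924 and 1252 reads in the WT and 895 and 1113 reads in the TgAD libraries, or 393 and 430 CPM against 326 and 277 CPM. The genotypes did not overlap, and the log2 fold change was -0.45 (standard error 0.196, 95% interval -0.92 to 0.02, adjusted p = 0.150 by edgeR). It passed with total counts as library size (-0.70, adjusted p = 0.0736 by edgeR) and without TgAD replicate 1 (-0.67, adjusted p = 0.0909), and was at -0.40 (adjusted p = 0.777) with the normalized table by name. miR-7a-2-3p had 257 and 463 reads in the WT and 341 and 524 reads in the TgAD libraries, or 109 and 159 CPM against 124 and 130 CPM. Both TgAD libraries fell between the WT libraries, and the log2 fold change was -0.08 (95% interval -0.68 to 0.53, adjusted p = 0.844), with a sign that turned to 0.20 without WT replicate 2 and to 0.029 with the normalized table by name. It was -0.14 without TgAD replicate 1 (adjusted p = 0.761 by edgeR). miR-7b-3p, the partner of the guide with the most counted reads, had 20 and 22 reads in the WT and 21 and 26 reads in the TgAD libraries. At this depth of between 6.47 and 8.51 CPM, the log2 fold change of -0.19 carried a 95% interval of -1.04 to 0.66 (adjusted p = 0.733). Without TgAD replicate 1 it was -0.40 (adjusted p = 0.557 by edgeR), and with the normalized table by name -0.03 (adjusted p = 0.995).

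Over the family, 1 of the 5 members passed a log2 fold change of 0.6 in size with an adjusted p under 0.1, against 33.1% of all tested miRNA in either direction (17.3% lower and 15.7% higher). In miRNA, these were 86 lower and 78 higher, and 122 lower and 43 higher with total counts as library size. At an unadjusted p under 0.05 stood 2 members, both guides, against 36.9% of the tested miRNA. None passed a log2 fold change of 1 with an adjusted p under 0.01, cutoffs that 4.44% of the tested miRNA passed, 3.02% as lower. All 5 log2 fold changes were below 0, with a median of -0.45, beside a median of 0.032 over all 496 tested miRNA. In 3 of the 5, both guides and miR-7a-1-3p, the TgAD libraries lay below the WT libraries without overlap, which also held for 32.5% of the tested miRNA, while 30.6% had both TgAD libraries above both WT libraries. With DESeq2 in default settings, 2 members passed the cutoffs, both guides, where 83 of all tested miRNA were lower and 60 higher. With the normalized table taken by name, 0 members and 0 of all tested miRNA passed. By log2 fold change, miR-7b-5p took position 26 from the lowest of the 496 and miR-7a-5p position 69.

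**Figure D2:**
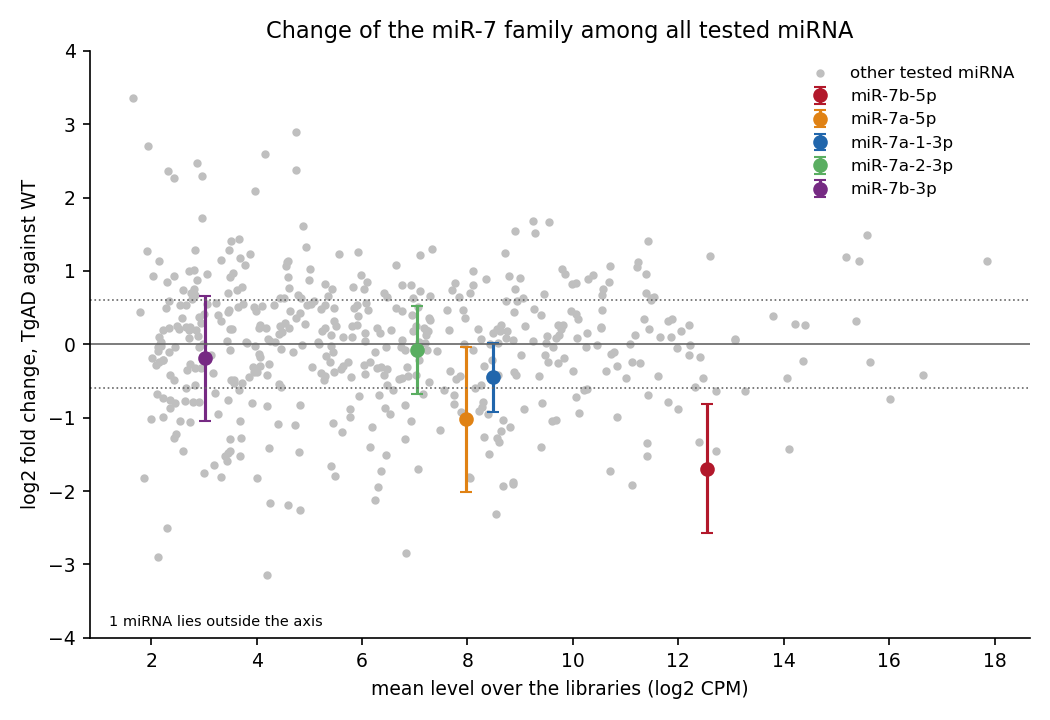
Log2 fold change of TgAD against WT (vertical axis) by mean level in log2 CPM (horizontal axis) for the 496 tested miRNA (grey) and the miR-7 members (colours, bars are 95% intervals), with dotted lines at 0.6 in size and 1 miRNA beyond the axis. The interval of miR-7b-5p, -2.58 to -0.82, lies wholly under the lower line, and those of the passengers cross 0.

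The arms of a hairpin come from the same precursor, and their ratio within a library does not depend on library size. The miR-7b hairpin gave 975 and 1249 reads of the 5p arm per read of the 3p arm (0.5 reads added to each arm) in WT neurons, and 229 and 577 in TgAD neurons. Its mean ratio in WT took position 5 from the highest of 158 pairs of arms, so that the guide made up nearly all of what was counted. Both TgAD ratios were below both WT ratios, and the log2 ratio differed by -1.60 (standard error 0.515, 95% interval -2.83 to -0.38, adjusted p = 0.0665 from limma with Benjamini-Hochberg adjustment over the 158 pairs). The 3p arm behind this ratio had at most 26 reads in any library. At an adjusted p under 0.1, 36.7% of the pairs changed their ratio, 22.2% towards fewer and 14.6% towards more 5p reads. Without TgAD replicate 1 the difference was -0.93 and no longer passed (adjusted p = 0.270 from limma), and with the normalized table by name it was -0.71 (adjusted p = 0.812 from limma).

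miR-7a-5p had fewer reads than the passenger of Mir7-1 in every library. The ratio of miR-7a-5p to miR-7a-1-3p reads was 0.794 and 0.841 in WT neurons, and 0.292 and 0.850 in TgAD neurons. TgAD replicate 2 thus lay close to the WT libraries and TgAD replicate 1 stood apart. The log2 ratio differed by -0.71 (95% interval -1.91 to 0.48, adjusted p = 0.321 from limma), by 0.056 both without TgAD replicate 1 and with the normalized table by name, and by -1.49 without TgAD replicate 2 (adjusted p = 0.00536 from limma). Against miR-7a-2-3p, the ratio was 2.85 and 2.27 in the WT and 0.766 and 1.80 in the TgAD libraries. Here the genotypes did not overlap, and the log2 ratio differed by -1.12 (95% interval -2.19 to -0.04, adjusted p = 0.106 from limma). It passed 0.1 without WT replicate 2 (-1.28, adjusted p = 0.0884) and without TgAD replicate 2 (-1.73, adjusted p = 0.00325). It did not pass without TgAD replicate 1 (-0.50, adjusted p = 0.405), without WT replicate 1 (-0.95, adjusted p = 0.255) or with the normalized table by name (-0.36, adjusted p = 0.879). Because the 5p count is shared by both hairpins, these ratios have the same numerator and are not independent, and the part of the counting of reads with 2 placements in them was not tested.

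**Figure D3:**
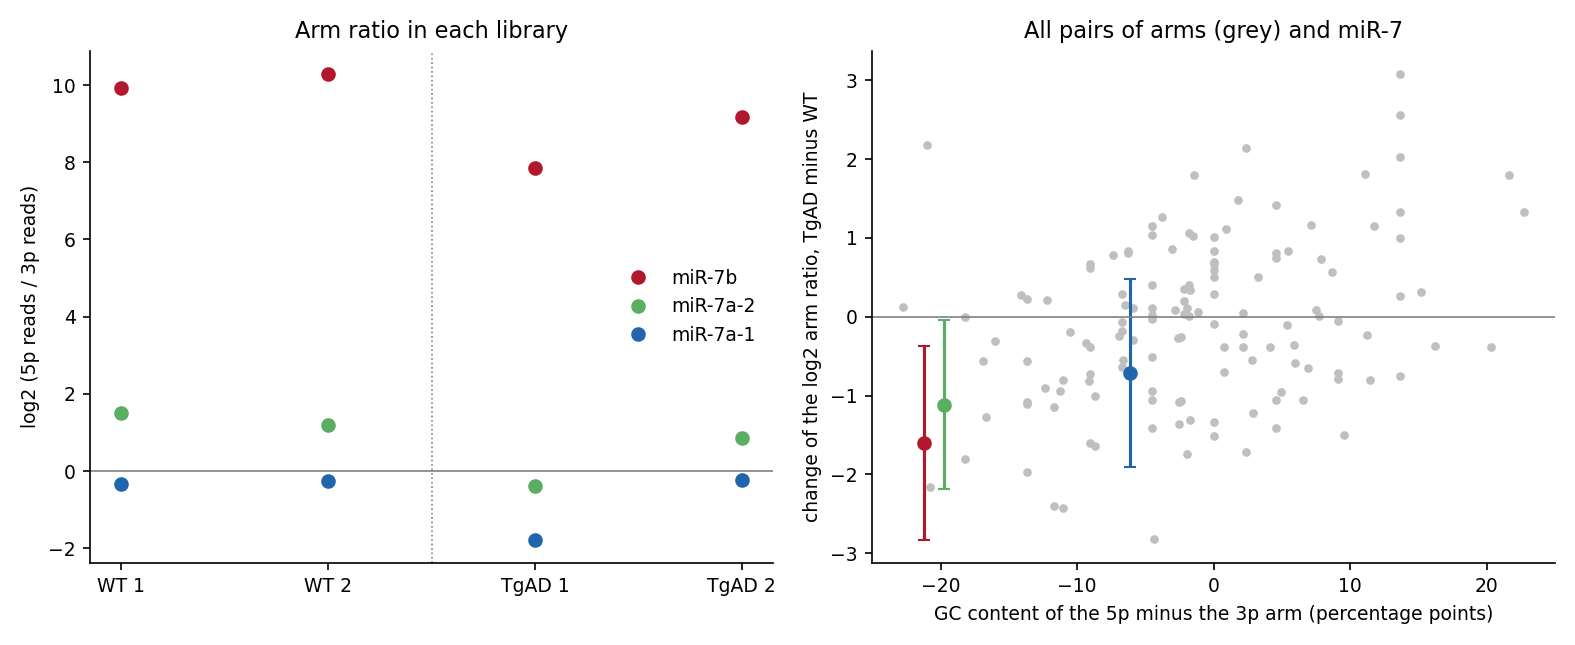
Left, log2 of 5p over 3p reads (vertical axis) of the miR-7 hairpins in each library, with WT left and TgAD right of the dotted line, and right, change of that log2 ratio between genotypes (vertical axis) by the GC content of the 5p minus the 3p arm in percentage points (horizontal axis) for all pairs with both GC values (grey) and miR-7 (colours as at left, bars are 95% intervals). miR-7b lies at -21.2 percentage points and a change of -1.60, near the left edge of the cloud.

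Between the guides, reads of miR-7b-5p per read of miR-7a-5p were 27.2 and 26.7 in WT neurons, and 18.9 and 16.2 in TgAD neurons. The WT libraries were nearly equal and both TgAD libraries lower, a difference of -0.63 in the log2 ratio, which was -0.74 without TgAD replicate 1 and -0.39 with the normalized table by name. A two-sided exact permutation test over 2 and 2 libraries gave p = 0.333, the smallest it allows. miR-7a-5p has 2 possible sources, and the part of the counting of reads with 2 placements in these ratios was not tested. The summed level of both guides was 8818 and 10013 CPM in WT and 1891 and 4039 CPM in TgAD neurons, and that of the 3 passengers was 511 and 597 CPM in WT and 458 and 414 CPM in TgAD neurons.

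The guides had a lower GC content than the passengers, and log2 fold change was correlated with GC content over the tested miRNA. The GC content was 33.3% for miR-7b-5p and 34.8% for miR-7a-5p, against 40.9% for miR-7a-1-3p and 54.5% for each of miR-7a-2-3p and miR-7b-3p. Among the 75 tested miRNA with a GC content under 40%, 42.7% were lower in TgAD neurons at the 0.6 and 0.1 cutoffs and the median log2 fold change was -0.76. Among the 366 with 40% or over, 13.4% were lower and the median was 0.15. Across the 441 tested miRNA with a known sequence, Pearson's r between log2 fold change and GC content was 0.346 and Spearman's rho 0.420, a description over miRNA that share the 4 libraries. After each library was corrected for GC content, the log2 fold change of miR-7b-5p was -0.94 (adjusted p = 0.0809 by edgeR) and that of miR-7a-5p was -0.35 (adjusted p = 0.568). The corrected values of the passengers were -0.12 for miR-7a-1-3p, -0.37 for miR-7a-2-3p and -0.48 for miR-7b-3p, none of them past the cutoffs, so the corrected estimate of miR-7a-5p was no lower than those of the last 2. When the arm ratios were corrected in the same manner, an alternative added after seeing the data, the difference of the miR-7b ratio was -0.83 (adjusted p = 0.208 from limma), and the call was lost. The corrected differences were -0.38 for the miR-7a-2 ratio (adjusted p = 0.548 from limma) and -0.53 for the miR-7a-1 ratio (adjusted p = 0.435). Both corrections were fitted to library deviations that include the genotype difference, so they also take out genotype differences that go with GC content. The part of base composition in the difference of the guides was not tested.

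**Figure D4:**
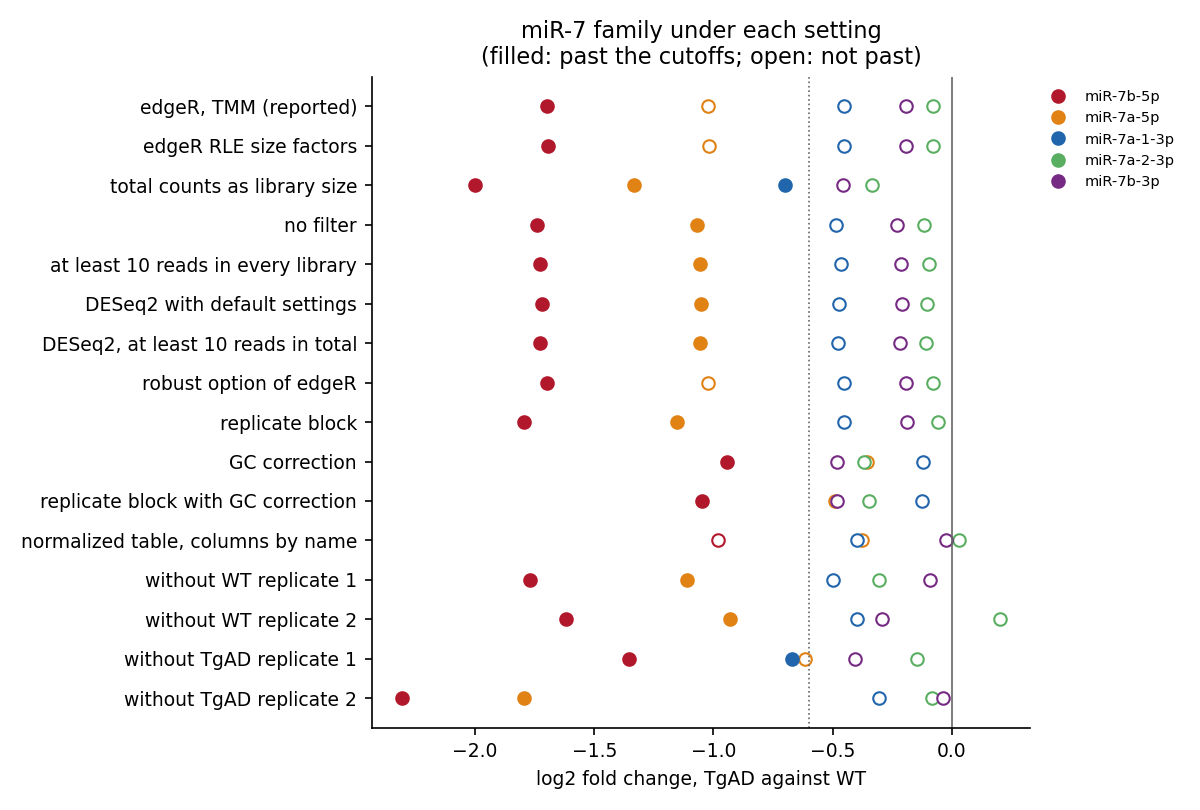
Log2 fold change of TgAD against WT (horizontal axis) of each miR-7 member (colours) under the reported fit and each alternative (rows), filled where past a size of 0.6 and an adjusted p of 0.1 and open where not, with a dotted line at -0.6. miR-7b-5p is filled in all settings except the normalized table taken by name and ranges from -2.31 to -0.94.

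Of the arms of miR-671, only miR-671-3p passed the cutoffs, as higher in TgAD neurons, beside 15.7% of all tested miRNA called higher. The arm of the Cdr1as circuit, miR-671-5p, had the same sign as miR-7b-5p and did not pass. miR-671-5p, the strand that guides cleavage of Cdr1as, had 192 and 288 reads in the WT and 210 and 281 reads in the TgAD libraries, or 81.7 and 98.9 CPM against 76.5 and 69.9 CPM. The genotypes did not overlap, but the log2 fold change was -0.31 (95% interval -0.86 to 0.25, adjusted p = 0.376 by edgeR). With the GC correction it was -0.74 and passed (adjusted p = 0.0776 by edgeR). It was -0.47 without TgAD replicate 1 (adjusted p = 0.278), and with the normalized table by name -0.30 (adjusted p = 0.850). The opposite strand, miR-671-3p, had 108 and 112 reads in the WT and 185 and 383 reads in the TgAD libraries, or 46.0 and 38.5 CPM against 67.4 and 95.2 CPM. Both TgAD libraries were higher, and the log2 fold change of 0.95 (standard error 0.275) passed the cutoffs (adjusted p = 0.0492), but not without TgAD replicate 2 (0.71, adjusted p = 0.150) or without WT replicate 2 (0.81, adjusted p = 0.204). With total counts as library size it was 0.66 (adjusted p = 0.149) and with the GC correction 0.58 (adjusted p = 0.211), past the cutoffs in neither. Without TgAD replicate 1 it was 1.08 and passed (adjusted p = 0.0607 by edgeR), and with the normalized table by name it was 0.86 and did not (adjusted p = 0.502).

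The 5 tested miRNA whose pattern over the 4 libraries was nearest to that of miR-7b-5p were miR-182-5p, miR-183-5p, miR-218-2-3p, miR-26a-2-3p and miR-190b-5p. Likeness was taken as the Euclidean distance between log2 CPM values centred on their mean, with distances of 0.294, 0.557, 0.614, 0.623 and 0.627. Between 5 and 52 reads per library were counted for miR-218-2-3p and between 15 and 51 for miR-190b-5p, so their positions rest on few reads. miR-7a-5p came in position 7, at 0.648. The nearest, miR-182-5p, which belongs to a sensory miRNA cluster together with miR-183-5p, had 891 and 1048 CPM in the WT and 228 and 507 CPM in the TgAD libraries. Like the miR-7 guides, it was lowest in TgAD replicate 1. These miRNA were picked for their likeness over 4 libraries that fall into 2 genotypes, so their differences between genotypes are a description. Their GC contents ranged from 31.8% for miR-190b-5p to 59.1% for miR-218-2-3p.

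**Figure D5:**
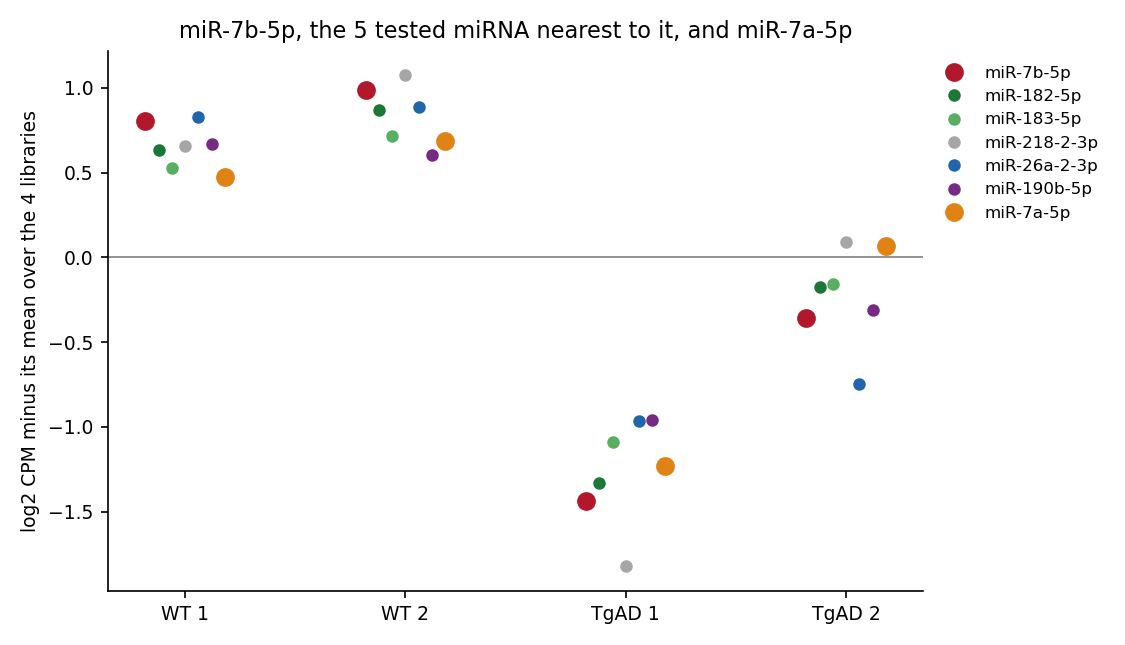
Log2 CPM minus its mean over the 4 libraries (vertical axis) in each library (horizontal axis) for miR-7b-5p, the 5 miRNA nearest to it and miR-7a-5p (colours, points shifted sideways for clarity, larger for miR-7). miR-7b-5p lies at 0.81 and 0.99 in the WT libraries and at -1.44 and -0.36 in the TgAD libraries.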

How the data were processed

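Small RNA was sequenced from 4 cultures of cortical neurons, 2 WT and 2 TgAD, grouped by the sample labels. The authors deposited counts without normalization, in a table for each library. Reads without adapters had been placed by Bowtie2 on GRCm38 with no mismatch allowed and counted by HTSeq-count on mature miRNA of miRBase 22.1. They also deposited a normalized signal, the counts divided by a size factor, from which whole reads were recovered for 100% of values (tolerance 0.01). It was used only as an alternative.

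The miRNA that passed a filter on low counts (496 of 1966) were fitted with edgeR 4.0.16 in R 4.3.3 (TMM, filterByExpr as the filter, quasi-likelihood test, genotype as the only factor), and p values were adjusted over all of them by Benjamini-Hochberg. A standard error is the log2 fold change divided by the square root of F. Arm ratios (prior of 0.5 reads) were tested with limma 3.58.1 with a variance trend on the weaker arm. A 3p arm that carries a locus number was paired with the 5p arm that has the same name without it. log2 CPM used a prior count of 2. GC correction was a loess fit (span 0.75) per library of log2 CPM deviations on the GC content of the mature miRNA, known for 88.9% of those tested. DESeq2 was version 1.42.0. Hairpins and UTRs came from GENCODE M21. Reads carry no molecular identifiers, so floors cover counting error only, and with 2 against 2 libraries the spread is estimated with information pooled over miRNA.

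The fits were run on simulated data with the same spread assumed for every miRNA. True log2 changes of 1 were called in 72.7% of cases by edgeR and in 60.9% for the arm ratio. Unchanged ones called numbered 12 in a fit of 525 miRNA and 6 in a fit of 164 pairs, totals that include the changed ones. The members, lists and nearest-pattern rule were chosen with earlier results of these data known. Named miRNA are the 5 members, both arms of miR-671, and the 5 nearest to miR-7b-5p. A target site and a list of miRNA planned beside them are not reported here.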

Additional observations from a re-analysis of the deposited data

Results flagged for a closer look

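The last column of the deposited normalized table, named for TgAD replicate 2, equals none of the 4 count tables and holds 1926952 recovered reads over 674 miRNA. It is marked for a closer look because it holds reads of every miR-7 member outside the main comparison. It contains 1952 reads of miR-7b-5p, 105 of miR-7a-5p, 357 of miR-7a-1-3p, 143 of miR-7a-2-3p and 13 of miR-7b-3p. On the scale of that table, miR-7b-5p was at 4297 and 20949 in the columns named for WT and at 9071 and 3522 in those named for TgAD. The column with 4297 holds the reads of the count table labelled TgAD replicate 1. The low value of miR-7b-5p in that library therefore stands under a TgAD label in the count tables and under a WT label in the normalized table. The lowest value of the normalized table, 3522, stands in its last column, named for TgAD replicate 2.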

How the results depend on the processing

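The decrease of miR-7b-5p kept its direction and passed the cutoffs in 14 of 15 alternatives. With the reads of the normalized table by column name it was -0.98 and did not pass, and no miR-7 member, 0 tested miRNA in either direction and 0 of the arms of miR-671 did. In that setting the log2 fold change of miR-7a-2-3p was 0.029, the arm ratio changes of miR-7a-1 and miR-7b were 0.056 and -0.71, and the guide ratio change was -0.39. miR-7a-5p passed with total counts (-1.33), no filter (-1.07), at least 10 reads in every library (-1.06), DESeq2 (-1.05 by default and -1.06 on miRNA with at least 10 reads in total) and the replicate block (-1.15). The members past the 0.6 and 0.1 cutoffs were 3 with total counts and 2 in each of the other settings just named. Of all tested miRNA, 122 were lower and 43 higher with total counts, 104 and 81 with no filter, and 101 and 87 with the replicate block. With at least 10 reads in every library these were 86 and 71, and with DESeq2 83 and 60 by default. Members past the stringent cutoffs were 2 with total counts, no filter or the replicate block. There was 1 with at least 10 reads in every library, with either DESeq2 run or with the replicate block with GC correction. The share of all tested miRNA past the stringent cutoffs was not counted in these settings. With total counts miR-7a-1-3p was -0.70, 43 miRNA in place of 78 were higher and 0 arms of miR-671 passed. With the GC correction of the arm ratio, miR-7b was -0.83.

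With each library left out, where a lone library is assumed to vary like the other genotype's, miR-7b-5p ranged from -2.31 to -1.35, miR-7a-5p from -1.80 to -0.62, miR-7a-1-3p from -0.67 to -0.31, miR-7a-2-3p from -0.31 to 0.20 and miR-7b-3p from -0.40 to -0.04. The number of members past the cutoffs was 2 each time, from 0 to 2 past the stringent ones, 67 to 89 miRNA were lower and 47 to 61 higher, and 0 to 1 arms of miR-671 passed. The arm ratio changes ranged from -1.49 to 0.056 for miR-7a-1, from -1.73 to -0.50 for miR-7a-2 and from -2.27 to -0.93 for miR-7b, and the guide ratio change from -0.74 to -0.51. The cause was not tested.

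Replicate numbers share no stated origin, and deviations of same-numbered libraries correlated at 0.216. With the replicate block, the arm ratio change of miR-7a-2 was -1.12 and passed (adjusted p = 0.0992 from limma).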
